A study of Rattus norvegicus with 18 samples.

Results

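The 9 antioxidant and heme oxygenase genes Hmox1, Gpx1, Gpx3, Gpx7, Sod1, Sod2, Cat, Nqo1 and Txnrd1 were followed at the site of femoral fracture in rats of 3 ages. They were chosen by gene symbol with earlier results of these data known, and all 9 were measured. Annotated to them were 19 of the 8740 probe sets tested on the Affymetrix rat array, among 4736 named genes. A probe set reads a gene with several short probes. The brightest one of each gene led, and the others are given beside it. The animals were female Sprague-Dawley rats, called young when their femur was broken at 6 weeks of age, adult at 26 weeks and older at 52 weeks. The break was held by an intramedullary rod, and the rats were sampled at 0.4 week (3 days), 1, 2, 4 or 6 weeks later. The 0 time controls of each age had no fracture. One series of 18 arrays was analysed here, 1 array for each age and time, and each array read the pooled RNA of 2 rats. The sampled segment held callus, cortical bone and marrow, so a lower signal from fewer cells of a type cannot be told apart from less RNA per cell.

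Cells meet reactive oxygen with enzymes that act in sequence. The superoxide dismutases turn superoxide into hydrogen peroxide, and catalase, the glutathione peroxidases and the thioredoxin-dependent peroxiredoxins then reduce the peroxide. Heme oxygenase breaks down the heme that is set free from hemoglobin and myoglobin, giving biliverdin, iron and carbon monoxide. Several of these genes, with Hmox1, Nqo1 and Txnrd1 as textbook cases, are induced by the transcription factor NRF2, which binds antioxidant response elements in DNA.

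The values were Microarray Suite 5.0 signals in arbitrary units, scaled by the authors to an average of 500 per array. The median signal per array lay between 149.4 and 187.7, and 10.5% to 17.9% of probe sets were below 20, the floor set here before log2 values were taken. Changes with time were tested with limma from the 18 arrays together, in a fit of age plus week, so the 3 ages were the replicates of each week (n = 3). The age term takes out the mean level of each age. The p-values therefore measured how far the ages departed from a shared time course, pooled over all weeks. A change was called at a Benjamini-Hochberg adjusted p under 0.05 over all probe sets. The ratio of 3′ to 5′ signal of Gapdh, a sign of RNA integrity, was 3.48 in the young array of 4 weeks and 6.57 in that of 6 weeks, against 1.15 to 1.83 in the other 16 arrays.

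Markers of several cell types were read as the mean log2 signal of each list, which does not show that every gene was detected. The mean log2 signal of 7 osteoblast genes was 9.93 to 12.98, and blood-forming and muscle cells were read too, with 8 erythroid genes at 7.77 to 11.87 and 13 skeletal muscle genes at 10.53 to 14.04. By the F test over time, 8 of the 8 erythroid genes, 5 of 6 granulocyte genes and 12 of 13 skeletal muscle genes were called with their largest change downward, and none of these 3 lists had a gene called upward. Upward calls numbered 3 of 7 in the macrophage list, 6 of 7 in the chondrocyte list, 3 of 7 in the osteoblast list and 3 of 8 in the adipocyte list, and downward calls 0, 1, 1 and 2.

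The 9 antioxidant genes moved in both directions after fracture. Hmox1 and Txnrd1 rose within 3 days of fracture, Gpx7 rose at the same time and stayed up to 2 weeks, Gpx3 rose at 2 and 4 weeks, and Gpx1 and Cat fell. The F test over time called 6 of the 9 genes, 3 with their largest change upward (Hmox1, Gpx3 and Txnrd1) and 3 with it downward (Gpx1, Cat and Nqo1), beside 13.4% of all probe sets called upward and 13.1% called downward. The adjusted p of the other genes was 0.0563 for Gpx7, 0.266 for Sod1 and 0.274 for Sod2. All 9 genes had a mean signal of 200 or more, as had 4108 probe sets. Among those the test called 1082 upward and 944 downward, larger shares than over all probe sets. It then called 7 of the 9 genes, 4 upward and 3 downward. Without the young arrays 5 were called. With the adult arrays left out limma called 0 genes and 3 passed an unadjusted p under 0.05, and with the older arrays left out it called 0 and 4 passed. Over all 8740 probe sets those 3 fits called 2038, 26 and 175.

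At 0.4 week Hmox1, Gpx7 and Txnrd1 were higher than at 0 time and Gpx1 and Cat were lower, so 3 of 9 genes were called higher (14.1% of all probe sets) and 2 lower (17.1%). At 1 week 2 genes were higher (14.6% of all probe sets) and 1 lower (20.4%). At 2 weeks Gpx3 and Gpx7 were higher (9.49% of all probe sets) and Gpx1, Cat and Nqo1 lower (10.3%). At 4 weeks Gpx3 alone was higher (3.31%) and none was lower (1.77%). At 6 weeks limma called none of the 9 higher (0.561%) or lower (0.32%), and 4 passed an unadjusted p under 0.05. Without the young arrays 6, 6, 7, 3 and 3 genes were called at the 5 weeks in turn. Without the adult arrays limma called 0 at each week, where 3, 1, 2, 0 and 0 passed an unadjusted p under 0.05. It called 1 at 0.4 week and 0 at each later week without the older arrays, where 4, 1, 3, 3 and 1 passed unadjusted. The median log2 change of the 9 genes was -0.01, 0.13, -0.54, -0.37 and -0.31 at the 5 weeks in turn, beside -0.13, -0.13, -0.13, -0.04 and -0.06 over all probe sets.

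**Figure D1:**
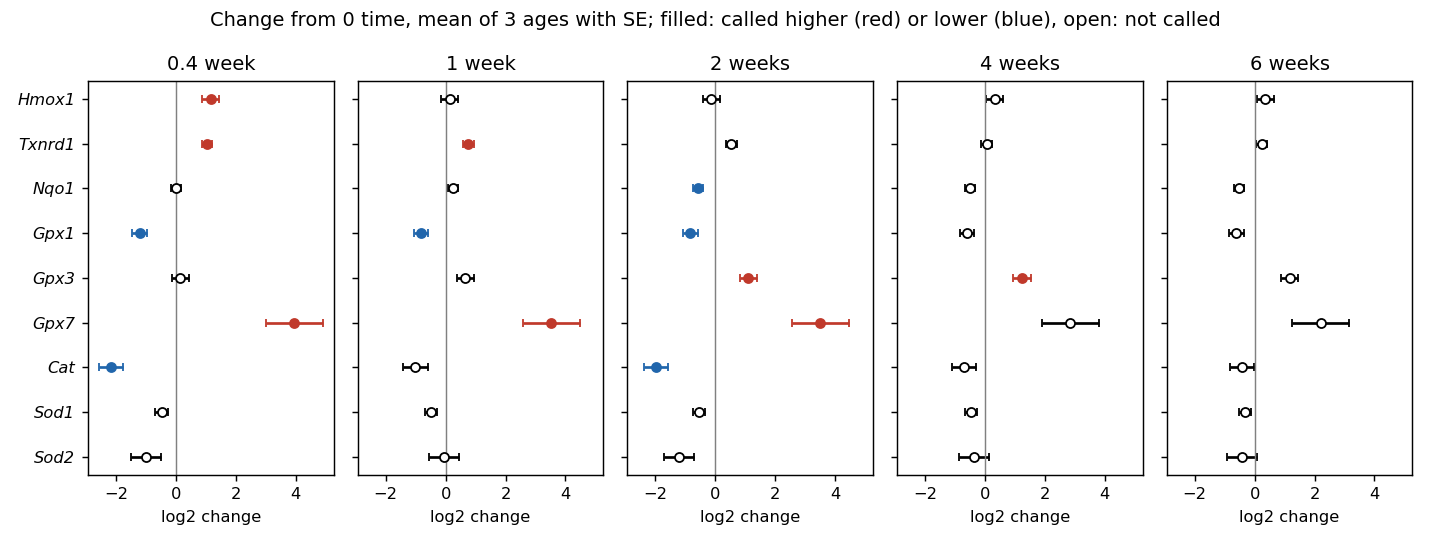
Log2 change from 0 time (horizontal axis) of the leading probe set of each antioxidant gene at 5 times after fracture, as the fitted mean of 3 ages with its standard error. Filled points were called higher (red) or lower (blue), and the widest shift is that of Gpx7, at 3.95 at 0.4 week.

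Hmox1, the inducible heme oxygenase, was highest at 0.4 week at each age in its leading probe set. Its signal was 3558, 3761 and 3708 in young, adult and older rats at 0.4 week, against 1625, 1228 and 2229 at 0 time. All 3 arrays of 0.4 week lay above every control array and above every array of the later weeks. The mean was 3675 ± 105 at 0.4 week and 1694 ± 504 at 0 time (SD, n = 3 each), a log2 change of 1.16 (SE 0.29, limma adjusted p = 0.0126) or 2.23-fold.

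The ages lay within 1.06-fold of each other at 0.4 week, against 1.81-fold at 0 time, 2.44-fold at 1 week and 1.83-fold at 6 weeks. At 1 week Hmox1 was 1611, 1223 and 2986 in young, adult and older rats. At 6 weeks it was 3104, 1775 and 1692, and the young array of that week is the one with a Gapdh ratio of 6.57. The means of 1 to 6 weeks were not called against 0 time, with ranges that overlapped it (adjusted p 0.506 to 0.796). The other Hmox1 probe set was also called higher at 0.4 week, with 976, 1094 and 1113 in young, adult and older rats at 0.4 week, against 159, 397 and 427 at 0 time, a log2 change of 1.82 (SE 0.43, adjusted p = 0.00958), although it missed the F test (adjusted p = 0.0596). In older rats it was highest at 1 week instead, at 1346, against 620.0 in young rats, and its mean change of 1.17 at 1 week was not called (adjusted p = 0.0549). In young rats it stayed above their control at every later week. Without the young arrays the call of the leading probe set was lost (log2 change 1.17, adjusted p = 0.0539), and also without the adult arrays (0.93, adjusted p = 0.226). The mean log2 signal of 7 macrophage genes was 9.06, 8.82 and 9.14 in young, adult and older rats at 0.4 week, against 8.82, 7.88 and 8.57 at 0 time, and its part in the Hmox1 change was not tested.

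**Figure D2:**
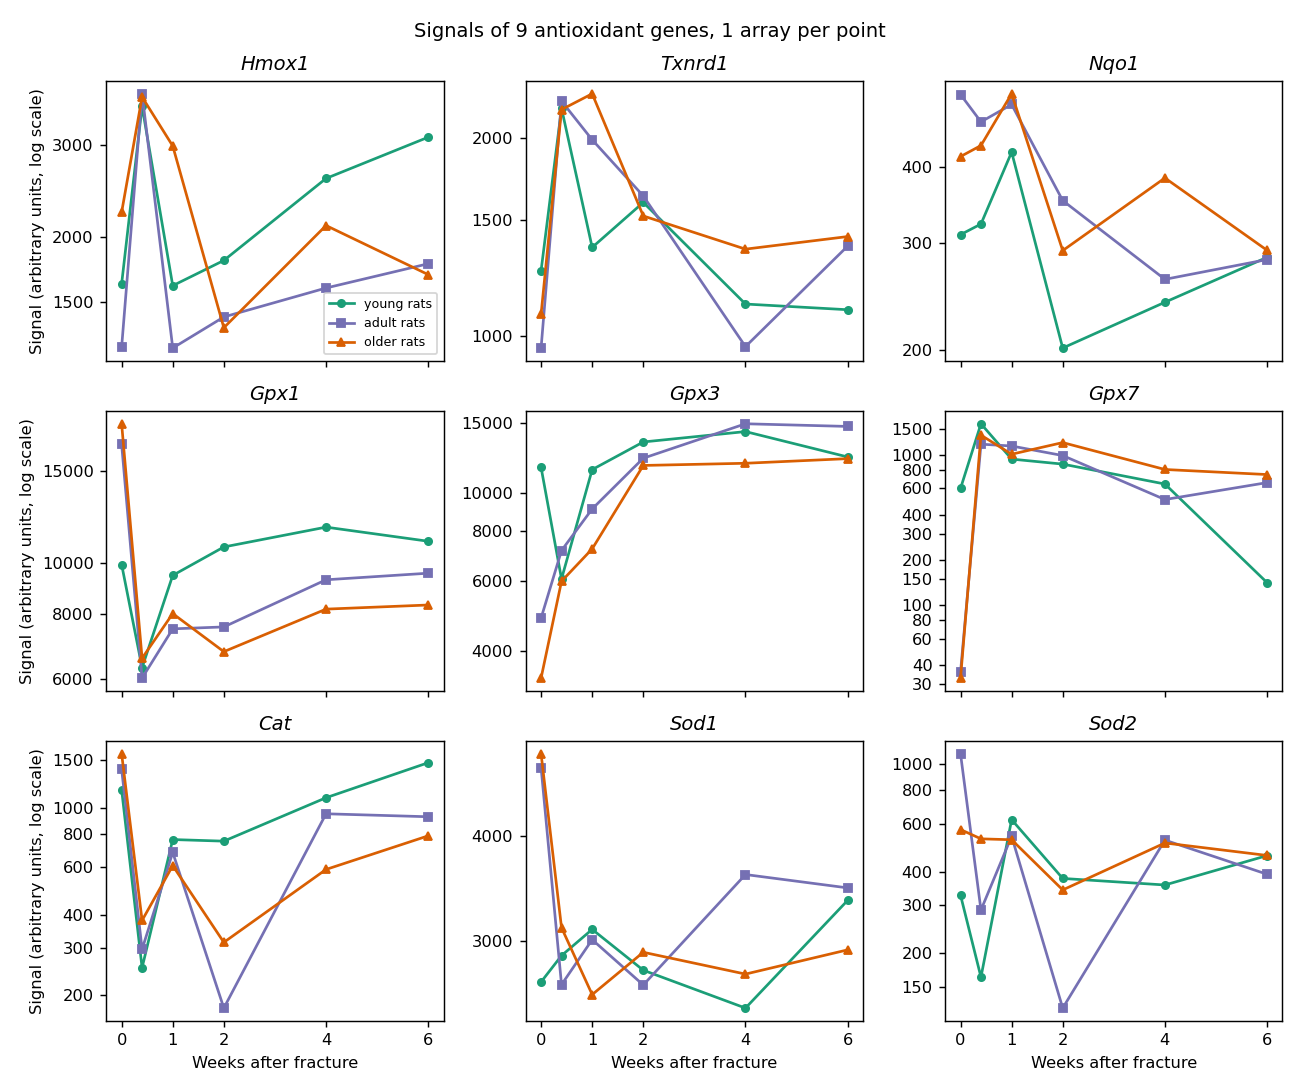
Signal in arbitrary units (vertical axis, log scale, with its own range in each panel) of the leading probe set of each gene by weeks after fracture, with 1 array per point. Green circles are young, purple squares adult and orange triangles older rats, and the 3 arrays of Hmox1 at 0.4 week lie between 3558 and 3761.

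Txnrd1, the cytosolic thioredoxin reductase that keeps thioredoxin reduced, rose with Hmox1 and was still higher at 1 week. Its signal was 2215, 2271 and 2205 in young, adult and older rats at 0.4 week, against 1256, 958 and 1079 at 0 time. The groups did not overlap, and the 3 ages lay within 1.03-fold of each other at 0.4 week. The means were 2230 ± 35.7 and 1098 ± 150 (SD, n = 3 each), a 2.04-fold rise (log2 change 1.03, SE 0.18, adjusted p = 0.00184).

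At 1 week Txnrd1 was 1362, 1984 and 2331 in the same order of ages, still above every control (log2 change 0.76, SE 0.18, adjusted p = 0.00840). At 2 weeks the arrays (1521 to 1631) were again all above the controls, but the change of 0.54 was not called (adjusted p = 0.0523). The second probe set moved the same way, by 1.08 at 0.4 week (SE 0.16, adjusted p = 0.000889) and 0.85 at 1 week (adjusted p = 0.00351). The 0.4 week call of the leading probe set was lost without the adult arrays (log2 change 0.92, adjusted p = 0.0890) and without the older arrays (1.03, adjusted p = 0.0563).

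RefSeq promoters, from 250 bases before to 50 bases after a gene's start on the build GRCr8, were found for 8 of the 9 genes (9 windows). Hmox1 had no window and was not searched. Windows are shown for Txnrd1, Gpx1, Cat, Gpx3 and Gpx7, and not for Nqo1, Sod1 and Sod2. Both strands were searched for the antioxidant response element core TGACNNNGC, the TATA box TATAAA, the CCAAT box CCAAT and the GC box GGGCGG, which occur in 12.1%, 14.2%, 37.5% and 33.1% of all 33469 windows of rat genes. Txnrd1 has 2 listed starts. The window of the start further along the gene, chr7:22755855-22756154 on the minus strand, holds an antioxidant response element core on the opposite strand, 78 bases before the start, with a CCAAT box and a GC box, in capitals below. The window of the other start holds none of the motifs, and no match in the windows shown overlaps another.
Txnrd1: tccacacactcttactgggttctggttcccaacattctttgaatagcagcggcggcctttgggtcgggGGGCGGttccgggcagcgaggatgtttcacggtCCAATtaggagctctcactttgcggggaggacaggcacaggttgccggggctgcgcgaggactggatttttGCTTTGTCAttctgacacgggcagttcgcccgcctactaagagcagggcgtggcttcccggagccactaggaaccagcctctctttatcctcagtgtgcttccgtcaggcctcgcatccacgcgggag
Of the 8 genes with a window, which leave out Hmox1, 2 (Sod2 and Txnrd1) had the element core, 2 (Sod1 and Nqo1) a TATA box, 5 a CCAAT box and 7 a GC box. A match describes letters and not a bound site.

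Nqo1, a quinone reductase that uses NADPH or NADH, was not called higher at any week. Its signal was 322, 474 and 433 in young, adult and older rats at 0.4 week, against 309, 526 and 416 at 0 time, a log2 change of -0.01 (SE 0.17, adjusted p = 1). At 1 week, its highest, it was 423, 506 and 527, above the own control in young and older rats and below it in adult rats, and the change of 0.25 was not called (adjusted p = 0.284). At 2 weeks it was 201, 352 and 291, below the own control at each age, although the ranges of the 2 times overlapped. The mean of 281 ± 75.7 at 2 weeks against 417 ± 108 at 0 time (SD, n = 3 each) gave a log2 change of -0.57 (SE 0.17, adjusted p = 0.0408).

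The call depended on the settings. It was lost under quantile normalization, with an offset of 50 or a floor of 1, after scaling to the median, without the age term and with the mean of both probe sets, and likewise without any 1 age (log2 change -0.55, -0.57 and -0.60 without the young, adult and older arrays, adjusted p 0.109, 0.202 and 0.252). The second Nqo1 probe set was dim, with signals of 8.2 to 86.2, and was not called at any week.

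Gpx1, the main glutathione peroxidase inside cells and abundant in red cells, fell sharply by 0.4 week. Its signal was 6309, 6025 and 6575 in young, adult and older rats at 0.4 week, against 9945, 16909 and 18516 at 0 time. The 0.4 week arrays were close together and lay below all other arrays, whereas the controls spread 1.86-fold. The means of 6303 ± 275 and 15123 ± 4556 (SD, n = 3 each) gave a 2.32-fold fall (log2 change -1.21, SE 0.24, adjusted p = 0.00441).

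Gpx1 remained lower at 1 week (log2 change -0.82, adjusted p = 0.0250) and 2 weeks (-0.83, adjusted p = 0.0366), and its changes of -0.60 and -0.61 at 4 and 6 weeks were not called. Young rats were the exception from 2 weeks on, with 10747, 11731 and 11022 at 2, 4 and 6 weeks, each above their own control. A second probe set fell alike at 0.4 week (log2 change -1.30, SE 0.21, adjusted p = 0.00148) but was below the own control at each age and week, and the third was under 20 on all arrays. The 0.4 week call was lost without the adult arrays (log2 change -1.08, adjusted p = 0.151) and without the older arrays (-1.07, adjusted p = 0.0953). The promoter of Gpx1, chr8:117905212-117905511 on the plus strand, holds 1 GC box, in capitals, and none of the other motifs.
Gpx1: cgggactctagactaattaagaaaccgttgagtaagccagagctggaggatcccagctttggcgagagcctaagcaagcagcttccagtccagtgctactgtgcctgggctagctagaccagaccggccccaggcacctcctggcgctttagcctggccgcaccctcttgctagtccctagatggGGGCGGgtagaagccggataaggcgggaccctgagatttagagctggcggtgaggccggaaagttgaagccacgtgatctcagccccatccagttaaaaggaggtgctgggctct

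Cat, the catalase of peroxisomes and red cells, showed the deepest fall among the leading probe sets. Its signal was 254, 297 and 380.2 in young, adult and older rats at 0.4 week, against 1165, 1387 and 1586 at 0 time. Every array of 0.4 week lay below every control, with means of 310.3 ± 64.4 and 1379 ± 211 (SD, n = 3 each). This was a 4.47-fold fall (log2 change -2.16, SE 0.40, adjusted p = 0.00294).

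Cat partly returned at 1 week, to 760.5, 681 and 608 in young, adult and older rats (log2 change -1.01, adjusted p = 0.0729). At 2 weeks it was low again in adult (179) and older (315) rats but 750.1 in young rats, and the mean change was -1.97 (SE 0.40, adjusted p = 0.0115). A second probe set fell by 2.15 at 0.4 week on the log2 scale (SE 0.47, adjusted p = 0.00692), with a change of -1.57 at 2 weeks, and the third, at 4.2 to 156, was not called. The 0.4 week change was -2.13 without the adult arrays (adjusted p = 0.0748) and -2.21 without the older arrays (adjusted p = 0.0729). The Cat promoter, chr3:110329477-110329776 on the minus strand, has no GC box and 5 CCAAT boxes on either strand, in capitals.
Cat: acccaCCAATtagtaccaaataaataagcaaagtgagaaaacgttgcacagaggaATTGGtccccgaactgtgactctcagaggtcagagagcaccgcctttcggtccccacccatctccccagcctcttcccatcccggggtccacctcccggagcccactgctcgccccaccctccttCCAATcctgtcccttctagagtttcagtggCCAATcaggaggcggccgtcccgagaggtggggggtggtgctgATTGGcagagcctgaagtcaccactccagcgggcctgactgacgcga

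Erythroid markers were low at 0.4 week, as Gpx1 and Cat were. The mean log2 signal of the 8 erythroid genes was 8.72, 8.36 and 8.31 in young, adult and older rats at 0.4 week, against 11.56, 11.44 and 11.87 at 0 time. At 2 weeks it was 11.36 in young rats, 8.64 in adult and 8.46 in older rats, so the young array that kept a Cat signal of 750.1 was also the one with high erythroid genes. At 1 week the erythroid genes were at 8.10, 7.77 and 8.06, their lowest week in each age, whereas the means of Cat (683) and Gpx1 (8325) were above those of 0.4 week. The 6 granulocyte genes stood at 8.80, 7.34 and 6.70 at 0.4 week, against 10.98, 10.11 and 11.06 at 0 time. The 13 skeletal muscle genes stood at 11.06, 10.53 and 10.66 at 0.4 week, against 13.19, 14.04 and 13.62 at 0 time. The part of these cell types in the changes of Gpx1 and Cat was not tested.

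Gpx3, the glutathione peroxidase that is secreted into plasma, was higher at 2 and 4 weeks. Its signal was 11589, 4848 and 3426 in young, adult and older rats at 0 time, 13427, 12223 and 11721 at 2 weeks and 14259, 14918 and 11870 at 4 weeks. All arrays of 2 and 4 weeks lay above the highest control, which was the young one. The mean was 6621 ± 4361 at 0 time, 12457 ± 877 at 2 weeks and 13682 ± 1603 at 4 weeks (SD, n = 3 each).

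The log2 change of Gpx3 was 1.11 at 2 weeks (SE 0.29, adjusted p = 0.0249) and 1.24 at 4 weeks (adjusted p = 0.0379), a 2.36-fold rise. At 6 weeks the change of 1.17 was not called (adjusted p = 0.0752), nor was that at 0.4 week (0.15). These means hide differences between the ages. Against the own control, the log2 change at 0.4 week was -0.93, 0.56 and 0.81 in young, adult and older rats. At 4 weeks it was 0.30, 1.62 and 1.79 in the same order. The second probe set rose by 2.26 at 2 weeks (SE 0.63, adjusted p = 0.0313), 4.79-fold, but missed the F test (adjusted p = 0.0981). The 4 week call was lost with each array scaled to its median (log2 change 1.21, adjusted p = 0.0581), with no age term (1.24, adjusted p = 0.0546), without the young arrays of 4 and 6 weeks (1.38, adjusted p = 0.0548), without the adult arrays (1.05, adjusted p = 0.394) and without the older arrays (0.96, adjusted p = 0.436). The Gpx3 promoter, chr10:39529085-39529384 on the plus strand, holds a GC box just before the start and a CCAAT box on the opposite strand after it, in capitals.
Gpx3: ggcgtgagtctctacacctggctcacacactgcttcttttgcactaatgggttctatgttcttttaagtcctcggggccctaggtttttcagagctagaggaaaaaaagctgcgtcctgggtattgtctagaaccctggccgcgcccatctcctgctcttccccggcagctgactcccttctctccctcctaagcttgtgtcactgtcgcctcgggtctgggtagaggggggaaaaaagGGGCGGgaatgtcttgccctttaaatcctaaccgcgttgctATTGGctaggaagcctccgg

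Gpx7, a glutathione peroxidase-like enzyme of the endoplasmic reticulum that acts in protein folding, had the widest range of the 9 genes. It has 1 probe set. Its signal was 1614, 1181 and 1355 in young, adult and older rats at 0.4 week, against 599, 35.9 and 32.8 at 0 time. The adult and older controls were near the floor of 20, and the young control was 18.3 times the older one.

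The mean of Gpx7 was 1383 ± 218 at 0.4 week and 223 ± 326 at 0 time (SD, n = 3 each), a log2 change of 3.95 (SE 0.95, adjusted p = 0.0105). It was still higher at 1 week (3.53, adjusted p = 0.0165) and at 2 weeks (3.51, adjusted p = 0.0290), with all arrays above the highest control, and was not called at 4 weeks (2.84, adjusted p = 0.0983) or 6 weeks (2.20, adjusted p = 0.219). The lowest array after fracture was the young one of 6 weeks, at 141, which is also the array with the highest Gapdh ratio. The 0.4 week call was lost without the adult arrays (3.40, adjusted p = 0.198) and without the older arrays (3.23, adjusted p = 0.187). The size of that change rests on controls near the floor. It was 5.20 without the young arrays (adjusted p = 0.000188) and 3.09 with an offset of 50 (adjusted p = 0.00284). The Gpx7 promoter, chr5:128381676-128381975 on the minus strand, holds 1 GC box on the opposite strand, in capitals, and none of the other motifs.
Gpx7: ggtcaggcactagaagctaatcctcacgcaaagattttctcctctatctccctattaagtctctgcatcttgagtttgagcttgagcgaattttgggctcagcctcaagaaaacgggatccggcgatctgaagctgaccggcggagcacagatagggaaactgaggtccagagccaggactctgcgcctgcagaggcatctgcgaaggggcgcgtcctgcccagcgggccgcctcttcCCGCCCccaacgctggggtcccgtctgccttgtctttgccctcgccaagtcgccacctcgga

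The leading probe sets of the superoxide dismutases were not called at any week. Sod1, the copper and zinc enzyme of the cytosol, had a signal of 2878, 2657 and 3108 in young, adult and older rats at 0.4 week, against 2677, 4833 and 5020 at 0 time. Adult and older rats were below their controls at all 5 later weeks, whereas young rats were above theirs at 4 of 5. The changes of -0.31 to -0.54 on the log2 scale were not called at any week (adjusted p 0.0790 to 0.390), and without the young arrays that of 2 weeks was called (-0.83, adjusted p = 0.0168).

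The probe sets of Sod1 did not give the same calls. One of the others was lower at 0.4 week (log2 change -0.77, adjusted p = 0.0164), 1 week (-0.86, adjusted p = 0.00961) and 2 weeks (-0.82, adjusted p = 0.0223) and passed the F test (adjusted p = 0.0435), and the third was not called. Sod2, the manganese enzyme of mitochondria, had 1 probe set, at 163, 289 and 528 in young, adult and older rats at 0.4 week, against 327, 1087 and 572 at 0 time. Each age was lower, but the groups overlapped and the change of -1.01 was not called (SE 0.50, adjusted p = 0.149). Its largest change, -1.22 at 2 weeks (adjusted p = 0.104), was called without the young arrays (-1.93, adjusted p = 0.0411) and among probe sets with a mean of 200 or more (adjusted p = 0.0477), and it was -0.27 without the adult arrays (adjusted p = 0.812) and -1.45 without the older arrays (adjusted p = 0.340).

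Of 70 other measured genes of these pathways, the F test called 10 with their largest change upward, 18 with it downward and 42 not at all. The upward share of 14.3% is close to the 13.4% of all probe sets, and the downward share is 25.7%, beside 13.1%. These genes were read by their brightest probe set, whereas all probe sets include dim ones. At a mean signal of 200 or more 52 genes remained, 11 called upward and 19 downward. The same limit gave 1082 upward and 944 downward calls among 4108 probe sets. The upward share of the genes was then below that of the probe sets, and the downward share still above. Leaving out the young arrays gave 23 calls among the 70 genes, and leaving out the older arrays gave 3. Leaving out the adult arrays gave 0, while 26 passed an unadjusted p under 0.05. At single weeks the pathway genes were compared with all probe sets only. At 0.4 week 9 were called higher (12.9%, beside 14.1% of all probe sets) and 24 lower (34.3%, beside 17.1%). At 6 weeks 0 were higher, beside 0.561%, and 3 lower (4.29%, beside 0.32%). Among 15 glutathione transferases, which join glutathione to reactive compounds, 5 had a downward call and none an upward one, with a median log2 change of -0.63 at 0.4 week beside -0.13 over all probe sets. Mgst3, a microsomal transferase, fell by 2.10 on the log2 scale at 0.4 week (SE 0.18, adjusted p = 6.54e-05), to 1281 ± 166 at 0.4 week against 5589 ± 1543 at 0 time. Gsta4 fell by 2.42 at 0.4 week (adjusted p = 0.00310), Gsta1 by 2.08 at 2 weeks (adjusted p = 0.00389) and Gstm7 by 1.98 at 0.4 week (adjusted p = 0.0155).

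The thioredoxin and peroxiredoxin list, with 7 measured genes, had 1 upward and 5 downward calls. Prdx1, a cytosolic peroxiredoxin served by thioredoxin, rose 2.33-fold at 0.4 week (log2 change 1.22, SE 0.17, adjusted p = 0.000685). Prdx2, abundant in red cells, fell by 1.46 at 1 week (adjusted p = 0.00588), mitochondrial Prdx3 by 1.35 at 1 week (adjusted p = 0.00205) and Txnip, which binds and inhibits thioredoxin, by 1.18 at 0.4 week (adjusted p = 0.000647), all on the log2 scale. The mitochondrial counterpart of Txnrd1, Txnrd2, fell by 0.74 at 2 weeks (adjusted p = 0.0155).

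Among the 9 genes of glutathione synthesis and the other peroxidases, the F test called 2 downward and 7 not at all. Gpx4, which reduces lipid peroxides, fell by 0.76 on the log2 scale at 6 weeks (SE 0.15, adjusted p = 0.0424), and Ggt1, which fell by 0.53 at 0.4 week, had a mean signal of 16.9, under the floor. Gclc and Gclm, the catalytic and modifier subunits of the enzyme that starts glutathione synthesis, missed the F test (adjusted p = 0.125 and 0.130). At single weeks Gclc was called higher at 0.4 week, with a log2 change of 1.84 (SE 0.54, adjusted p = 0.0257). Gclm was called lower at 0.4 week (-2.80, adjusted p = 0.0497) and at 1 week, with a change of -3.00 (SE 0.98, adjusted p = 0.0359). Glutathione synthetase (Gss) and glutathione reductase (Gsr) missed the F test too (adjusted p = 0.0546 and 0.0900), and Gss was called higher at 0.4 and 1 week and Gsr lower at 1 and 2 weeks.

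The list of heme and iron handling, with 11 measured genes, had 4 upward calls and 1 downward. Aco1, the cytosolic aconitase that doubles as an iron sensor, rose by 1.54 at 0.4 week (SE 0.29, adjusted p = 0.00287). The transferrin receptor Tfrc and the iron exporter Slc40a1 passed the F test with their highest values at 4 weeks, where their changes of 1.26 and 1.17 were not called alone (adjusted p = 0.0607 and 0.0787). The one week at which Tfrc was called alone was 0.4 week, and there it was lower (-1.18, adjusted p = 0.0259). The downward call was haptoglobin (Hp), which binds free hemoglobin and fell by 1.72 at 0.4 week (adjusted p = 0.000996). The constitutive heme oxygenase Hmox2 and biliverdin reductase Blvra, the step after heme oxygenase, missed the F test (adjusted p = 0.155 and 0.892). Hmox2 was called lower at 1 week alone (log2 change -0.63, adjusted p = 0.0293) and Blvra at no week.

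NRF2 itself (Nfe2l2) rose by 1.91 at 1 week (SE 0.41, adjusted p = 0.00613). In the list of 13 NRF2 regulators and other targets, 2 were called upward, Nfe2l2 and the transporter Abcc1 (1.69 at 1 week, adjusted p = 0.00255), and 3 downward. These were Ephx1, an epoxide hydrolase (-1.66 at 0.4 week, adjusted p = 0.0107), Aldh3a1, an aldehyde dehydrogenase (-1.55 at 1 week, adjusted p = 0.00482), and Mafk, a small partner of NRF2 (-1.20 at 1 week, adjusted p = 0.00991). Among 6 genes of NADPH supply the cytosolic Idh1 rose by 1.82 at 0.4 week (adjusted p = 0.000868) and the mitochondrial Idh2 fell by 1.37 at 1 week (adjusted p = 0.00117), and the other 4 missed the F test. Of these, Nnt was called lower at 0.4 and 1 week, Me1 lower at 2 weeks and Tkt higher at 0.4 week. The 1 metallothionein measured, Mt3, rose by 3.52 at 2 weeks (SE 0.94, adjusted p = 0.0277). Of 8 sources of oxidants, Maoa rose by 0.81 at 1 week (adjusted p = 0.0482), Nos2 passed the F test with its largest change downward (-1.43 at 6 weeks, adjusted p = 0.157 for that week), and 6 missed the F test. Among the 6, Cyba, a subunit of the phagocyte NADPH oxidase, was called higher at 0.4, 1 and 2 weeks (log2 changes 1.41, 1.61 and 1.72, adjusted p = 0.0235, 0.0126 and 0.0182; F test adjusted p = 0.0542).

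**Figure D3:**
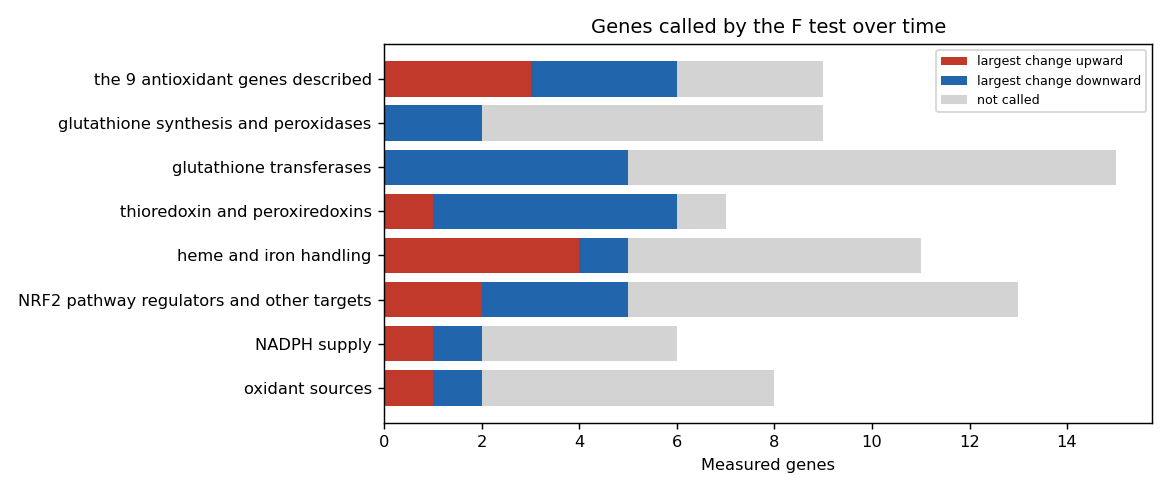
Number of measured genes (horizontal axis) called by the F test over time in each list, with the largest change upward (red) or downward (blue), or not called (grey). The 15 glutathione transferases hold 5 downward calls and no upward one, and the list with 1 measured metallothionein is not drawn.

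The genes whose log2 signals ran most like each called member over the 18 arrays were sought among the 3410 probe sets that have 1 gene symbol and a mean signal of 200 or more. The arrays share their time course and tissue mix, so the correlations are descriptions. Hmox1 ran with Aif1, a macrophage gene (r = 0.816), and Tspo (r = 0.803). Txnrd1 ran with Junb (r = 0.942) and Calu (r = 0.927), and Gpx3 with Cpe (r = 0.949) and the collagenase gene Mmp13 (r = 0.931). The gene most like Gpx1 was another of the 9, Cat, through its second probe set (r = 0.937), followed by Prdx2 (r = 0.917). The leading probe set of Cat ran with Rgs12 (r = 0.900) and Ncoa4 (r = 0.888), and Nqo1 with Cebpb (r = 0.837) and Mapkapk3 (r = 0.829).

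Older and young rats were compared over the 5 later weeks, because the study asked how healing differs with age. None of the 9 genes was called, and limma called 0% of all probe sets higher and 0% lower in older rats (516 and 587 at an unadjusted p under 0.05). Of the 9, 3 passed an unadjusted p under 0.05. Gpx1 was lower in older rats, with a log2 difference of -0.36 (SE 0.10, adjusted p = 0.215) and 4 of 5 weeks below young rats. Nqo1 was higher in older rats at 5 of 5 weeks (0.40, SE 0.13, adjusted p = 0.272) and Gpx3 lower at all 5 (-0.23, SE 0.10, adjusted p = 0.394). The second Gpx3 probe set went the other way (0.37, adjusted p = 0.802), with older rats higher at 3 of 5 weeks. The second probe sets of Gpx1 (-0.54) and Nqo1 (0.93) kept the direction of the leading ones. Adult against young rats gave 0% higher and 0% lower as well (394 and 341 at an unadjusted p under 0.05).

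The change from the own 0 time array was compared between the ages as well. For 3 of the 9 genes the change was called different between older and young rats, with 2 more positive in older rats (3.57% of all probe sets) and 1 more negative (3.02%). On average over the later weeks the log2 change of Gpx7 was 0.13 for young, 4.57 for adult and 4.93 for older rats, and the difference of older minus young rats was 4.80 (SE 0.91, adjusted p = 0.0147). With the adult and older controls near the floor its size depends on the scale, and it was 3.50 with an offset of 50 (adjusted p = 0.0211). The log2 change of Gpx3 was -0.07 for young, 1.21 for adult and 1.46 for older rats, a difference of 1.53 between older and young rats (SE 0.25, adjusted p = 0.00643). That of Gpx1 was -0.05, -1.10 and -1.30, a difference of -1.25 (SE 0.24, adjusted p = 0.0145).

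Each of these differences rests on 1 control array per age. The fit passes through those control arrays, so its p-values hold the spread of the later arrays and none between controls. All 5 later arrays of older rats and all 5 of adult rats lay on the same side of their control for the 3 genes, while young arrays fell on both sides. The second probe sets gave differences of the same sign without a call, at 2.37 for Gpx3 (adjusted p = 0.250) and -0.79 for Gpx1 (adjusted p = 0.243). In that of Gpx1 all 5 later young arrays lay below their control, unlike in the leading one. Sod1 was next, at -0.93 (SE 0.26, adjusted p = 0.0682). The second Cat probe set was called (-2.25, adjusted p = 0.0241) and the leading one was not (adjusted p = 0.506). Of the 70 pathway genes, 2 were called more positive and 2 more negative in older rats, 2.86% each, no more than the shares of all probe sets above. These 4, named after their values were seen, were Sod3, the secreted superoxide dismutase (1.77, adjusted p = 0.00838), Ireb2 (2.63, adjusted p = 0.0291), Gstm2 (-0.75, adjusted p = 0.0163) and Gstt2 (-0.92, adjusted p = 0.0339).

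Without the adult arrays, which add only to the estimate of the spread, the differences of Gpx7, Gpx3 and Gpx1 kept their size and lost the call (adjusted p = 0.0983, 0.0760 and 0.128). That of Gpx1 was also lost with quantile normalization (-0.86, adjusted p = 0.0796) and with the mean of its probe sets (-0.68, adjusted p = 0.0649), as was that of Gpx3 with the mean of its probe sets (1.95, adjusted p = 0.104). Without the young arrays of 4 and 6 weeks, which had the high Gapdh ratios, they were 4.37 (adjusted p = 0.000508), 1.45 (adjusted p = 0.0187) and -1.22 (adjusted p = 0.0405). The mean log2 signal of the 7 osteoblast genes at 0 time was 12.24, 10.65 and 9.93 for young, adult and older rats, in the same order as Gpx3 and Gpx7. That of the 7 chondrocyte genes was 7.59, 6.22 and 5.42. Their part in the differences between ages was not tested.

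**Figure D4:**
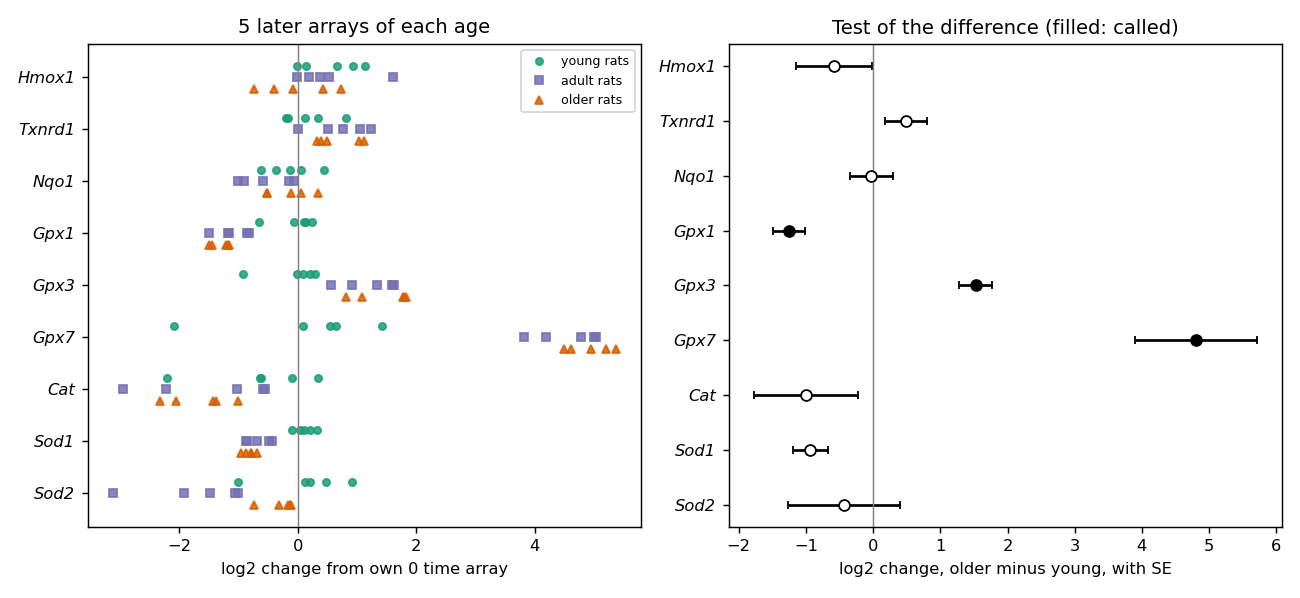
Left, log2 change of the leading probe set from the own 0 time array (horizontal axis) for the 5 later arrays of each age, with young rats as green circles, adult as purple squares and older as orange triangles. Right, the fitted difference of that change, older minus young, with its standard error, where filled points (Gpx1 at -1.25, Gpx3 at 1.53 and Gpx7 at 4.80) were called.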

How the data were processed

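The authors computed the deposited intensity values as Microarray Suite 5.0 signals on a linear scale, with every array scaled to 500. Here the trimmed mean (2% off each end) was 500.7 to 500.9. Detection calls and the other 2 series of arrays were not analysed here. The table lists 8799 probe sets, of which 59 controls were left out, and 7006 of the other 8740 have 1 gene symbol, 308 several and 1426 none. Signals under 20 were set to 20, which understates changes of dim genes, and taken to log2. No 2 arrays held the same values (r = 0.816 to 0.978 over 153 pairs), and 1 array per age and time limits the precision.

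Changes were fitted with limma 3.58.1 in R 4.3.3 with an intensity trend and Benjamini-Hochberg adjustment over all 8740 probe sets. Residual degrees of freedom were 10 over time, 8 for older against young rats over the 15 later arrays and 8 for the change from the own control. On simulated data with 200 changed probe sets, 2-fold and 4-fold changes were found for 31.5% and 80.0% at 0.4 week (4 and 7 false calls), 16.0% and 74.5% by the F test, 45.0% and 89.5% for older against young rats and 6.00% and 26.5% for the change from the own control. In the data many more probe sets were called, with 1229 higher and 1493 lower at 0.4 week. The threshold then differs, so the simulated shares need not hold for the data. All members were named, up to 4 called genes of each pathway list, partner enzymes of the members, and the 2 genes most alike to each called member. The members and lists were chosen with earlier results of these data known. Alternatives were other floors, offsets, scalings and signal limits, no trend, no age term, each age or week left out, the mean of a gene's probe sets and the methods' t-test. Promoters are from RefSeq (GRCr8). Plots were made in Python 3.11.15 with matplotlib 3.10.9.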

Additional observations from a re-analysis of the deposited data

Results flagged for a closer look

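The change from the own 0 time array differed between older and young rats for 3 genes by the interaction term of limma. The difference, older minus young on the log2 scale, was 4.80 for Gpx7, 1.53 for Gpx3 and -1.25 for Gpx1, and each rests on 1 control array per age. The adult and older controls of Gpx7 (35.9 and 32.8) were near the floor of 20, and its difference was 3.50 with an offset of 50.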

How the results depend on the processing

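Of the values for single genes under other settings, 271 kept their direction and their side of the threshold, 30 lost their call, 4 gained one and 10, none of them called, changed sign. Many of the 271 had no call to lose, among them all those of older minus young over the later weeks. The 271 therefore do not measure how stable the calls were. Counts of the 9 genes moved most with the arrays left out. With 1 age left out the F test called 0 to 5 of the 9 genes and 0 to 23 of the 70 pathway genes, the 0.4 week test 0 to 6, 1 week 0 to 6, 2 weeks 0 to 7, 4 weeks 0 to 3, 6 weeks 0 to 3 and, with the adult arrays left out, the change from the own control 0. Each of these fits used fewer arrays, and what moved the counts was not tested. At 2 weeks 3 genes were called with median scaling. At 4 weeks 0 were called with median scaling, with no age term and without the young arrays of 4 and 6 weeks, and 2 among probe sets with a mean of 200 or more. At 6 weeks 1 was called with a floor of 1, an offset of 50 or that same limit. The change from the own control was called for 1 gene with the mean of all probe sets. The methods' t-test on log2 signals called 2 genes at 0.4 week and 0 at 1, 2 and 4 weeks after adjustment (5, 2, 2 and 0 before it). Changes of sign concerned Nqo1 in the change from the own control, older minus young (-0.03), which was 0.035 with quantile normalization, 0.117 with median scaling, 0.083 without the young arrays of 4 and 6 weeks and 0.449 with the mean of all probe sets. For older minus young over the later weeks, Hmox1 (-0.13) was 0.127 without those arrays, 0.0088 with the mean of probe sets and 0.055 without 6 weeks, Gpx3 (-0.23) was 0.072 with the mean of probe sets, and Sod1 (-0.03) was 0.030 without 1 week and 0.015 without 6 weeks. The age term already sets each week against the control of the same age. No paired analysis was possible beyond that because each age and time has 1 array here and the labels give the same series number for all of them.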
